A study of Mus musculus with 6 samples.

Results

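The genes described here make cholesterol, control its uptake, move it within the cell, and send it out again. The 32 genes were chosen by name, with earlier results of these data known. They comprised 19 enzymes of synthesis and 4 regulators of the sterol-sensing SREBP system. The other 9 were genes of uptake, transport inside the cell, efflux, storage and the LXR receptors. A gene was measured where at least 1 probe set of the Affymetrix Mouse430_2 array named it and no other gene. That held for 29 of the 32, out of 18193 genes measured in all, through 65 probe sets, and each gene was represented by its brightest probe set. Acat2, Nr1h2 and Soat1 had no such probe set and were not analysed here. The 29 comprised 18 synthesis genes, 4 regulators and 7 genes of uptake, transport and efflux.

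Total RNA came from lungs of mouse embryos at E18.5, close to birth, and 5 micrograms were labelled for each array. The series compares 3 arrays labelled wild type (WT 1 to WT 3) with 3 labelled GATA6 KO (KO 1 to KO 3), a null of the zinc finger transcription factor GATA6, and asks which lung genes GATA6 regulates. The labels name neither the strain, nor the allele, nor the cells in which the gene was deleted, nor whether the arrays come from separate embryos. The p-values below therefore measure only the spread between these arrays, which may be technical. Values are log2(intensity + 16) throughout, a fold change on this scale understates the change of dim genes, and with 3 arrays in each group the precision is low.

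Cells build cholesterol from acetyl-CoA. The early enzymes make mevalonate and from it the isoprenoid farnesyl diphosphate, and the later ones join and cyclise these units and trim the ring to cholesterol. The transcription factor SREBP2, encoded by Srebf2, switches these genes on when membrane sterol is low: SCAP escorts it out of the endoplasmic reticulum, and the INSIG proteins hold it there when sterol is plentiful. LXR receptors respond to oxidised sterols and switch on efflux pumps. In the lung before birth, alveolar type II cells load cholesterol together with phospholipid into surfactant.

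The targeted gene, Gata6, was higher rather than lower where the label says KO. Its values were 11.12, 10.26 and 10.42 in WT 1 to 3 and 11.58, 11.39 and 11.19 in KO 1 to 3 (difference 0.79, SE 0.24, unadjusted p = 0.0182 and adjusted p = 0.964 in limma). Every array labelled KO lay above every array labelled WT, as for 5.89% of all genes. Only the brightest probe set of Gata6 is given. Where that probe set lies relative to the deleted part is not known here, so the labels remain unchecked by it, and every direction below is one between arrays labelled KO and arrays labelled WT. Fluidics station 1 held WT 1 and WT 2, and station 2 held the other 4 arrays. All scans of KO arrays followed those of WT arrays, so scan order and label cannot be told apart. The arrays labelled WT 1, KO 2 and KO 3 carried more signal on the 1097 bright probe sets without a gene name. Relative to bright named probe sets these read -0.23, -0.46 and -0.03 there, against -1.02, -0.94 and -0.96 in WT 2, WT 3 and KO 1. Lung markers were bright: Sftpc, Ager and Scgb1a1 averaged 15.68, 15.13 and 14.76 in the arrays labelled WT. Of the thymus and lymphocyte list Cd3e, Cd3g and Rag1 lay below 5 on every array. Liver and heart markers were not all that low. Alb (liver) read 4.84, 8.19 and 8.21 in WT 1 to 3 and 10.31, 7.14 and 8.49 in KO 1 to 3. Myl7 and Actc1 (heart) averaged 10.79 and 10.83 with the WT label and 10.98 and 10.92 with the KO label. Of 4 liver markers 2 read lower and 2 higher under the KO label, and of 4 heart markers 1 and 3. The part of such tissue in the differences was not tested.

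Most synthesis genes read lower together in the arrays labelled KO, and many share promoter features. A link between these observations was not tested. The 250 bases before the start of several members are shown as a description. The promoters come from RefSeq on GRCm38.p6, run 5′ to 3′ on the strand of the gene, and stop at the start of transcription. Capitals mark the NF-Y box (CCAAT or its reverse ATTGG) and the sterol regulatory element (TCACNCCAC, or TCACNCCAT, a form added after the sequences were seen, on either strand). Hmgcs1, Idi1 and Msmo1 are enzymes that read lower in the arrays labelled KO, and Srebf2 and Insig1 are regulators that read lower. Insig2 and Mylip are members that read higher, and Ebp is a synthesis gene with nearly equal levels. Of the members with a promoter, only Hmgcs1, Msmo1 and Srebf2 hold either form of the sterol regulatory element. The display thus makes it look more common than it is. Cyp51, Mvd, Dhcr7 and Nsdhl also read lower, have promoters without it and are not shown. Where a gene has several promoters, the 1 with the most such matches is shown.
Hmgcs1, chr13:119690101-119690350, plus strand: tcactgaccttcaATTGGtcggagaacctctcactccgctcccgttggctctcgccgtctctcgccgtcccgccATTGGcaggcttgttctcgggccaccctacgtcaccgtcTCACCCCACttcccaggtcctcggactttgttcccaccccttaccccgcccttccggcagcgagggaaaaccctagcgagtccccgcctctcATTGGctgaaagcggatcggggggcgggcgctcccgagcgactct
Idi1, chr13:8885356-8885605, plus strand: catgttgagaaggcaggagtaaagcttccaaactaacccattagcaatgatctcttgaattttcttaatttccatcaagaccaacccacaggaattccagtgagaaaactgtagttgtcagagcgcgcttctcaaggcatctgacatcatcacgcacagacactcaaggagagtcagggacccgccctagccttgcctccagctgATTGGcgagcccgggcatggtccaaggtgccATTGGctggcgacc
Msmo1, chr8:64733579-64733828, minus strand: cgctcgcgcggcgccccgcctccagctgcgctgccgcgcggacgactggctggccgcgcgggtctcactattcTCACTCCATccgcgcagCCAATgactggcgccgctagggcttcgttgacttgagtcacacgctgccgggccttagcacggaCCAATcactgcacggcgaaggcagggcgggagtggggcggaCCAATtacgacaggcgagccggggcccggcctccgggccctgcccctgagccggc
Srebf2, chr15:82147019-82147268, plus strand: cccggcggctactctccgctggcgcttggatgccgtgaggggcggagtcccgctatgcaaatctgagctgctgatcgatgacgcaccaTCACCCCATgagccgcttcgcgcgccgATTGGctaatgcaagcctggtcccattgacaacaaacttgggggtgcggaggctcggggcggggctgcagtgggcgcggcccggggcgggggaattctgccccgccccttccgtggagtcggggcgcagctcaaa
Insig1, chr5:28071162-28071411, plus strand: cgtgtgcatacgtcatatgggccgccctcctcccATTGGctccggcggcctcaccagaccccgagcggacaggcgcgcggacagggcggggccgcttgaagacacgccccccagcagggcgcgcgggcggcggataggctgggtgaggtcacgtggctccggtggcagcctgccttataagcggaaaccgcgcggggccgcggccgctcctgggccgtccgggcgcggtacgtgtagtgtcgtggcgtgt
Insig2, chr1:121332590-121332839, minus strand: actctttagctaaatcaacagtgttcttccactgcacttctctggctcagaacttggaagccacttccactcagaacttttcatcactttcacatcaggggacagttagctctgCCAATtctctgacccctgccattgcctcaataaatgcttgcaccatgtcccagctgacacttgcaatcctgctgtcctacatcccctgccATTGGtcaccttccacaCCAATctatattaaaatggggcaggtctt
Ebp, chrX:8193513-8193762, minus strand: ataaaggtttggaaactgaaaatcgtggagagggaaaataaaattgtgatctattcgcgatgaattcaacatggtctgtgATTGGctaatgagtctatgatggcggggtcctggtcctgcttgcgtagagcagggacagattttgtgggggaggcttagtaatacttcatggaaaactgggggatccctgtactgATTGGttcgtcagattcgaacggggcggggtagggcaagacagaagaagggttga
Mylip, chr13:45389492-45389741, plus strand: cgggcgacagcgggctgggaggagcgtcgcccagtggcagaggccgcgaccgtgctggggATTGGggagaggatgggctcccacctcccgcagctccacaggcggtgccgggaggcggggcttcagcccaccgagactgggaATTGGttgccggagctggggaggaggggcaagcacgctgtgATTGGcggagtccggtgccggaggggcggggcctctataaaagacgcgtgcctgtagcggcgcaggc

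Of the 29 measured members 23 matched the RefSeq promoter table, with 30 promoters of 250 bases before and 50 after the start. Fdps, Fdft1, Sqle, Stard4, Npc1 and Abcg1 did not match. The NF-Y box lay in 15 of the 18 promoters of synthesis genes (83.3%), at least 1 for each of the 15 genes, and in 37.4% of all 32851 promoters. The Sp1 box GGGCGG lay in 14 of the 18 (77.8%; 35.7% of all promoters) and the E-box CACGTG in 3 (16.7%; 7.15% of all). The sterol regulatory element TCACNCCAC was found in the promoter of 1 synthesis gene, Hmgcs1, from -137 to -129 relative to the start (5.56% of the 18; 1.24% of all promoters). The form TCACNCCAT was found in Msmo1, from -177 to -169, and in the regulator gene Srebf2, from -162 to -154. It lay in 0.764% of all promoters. Since this form was added after the sequences were seen, that share is no measure of enrichment in the members. The GATA letters AGATAA and TGATAA, each searched on both strands, were in 0 of the 18 promoters of synthesis genes, against 11.2% and 9.05% of all promoters. Among the other members Insig2 held both, in different promoters, and Npc2 held AGATAA. No match shared bases with a match to a different motif (0 pairs). A match to these letters is a description of the window and not a binding site, and the 2 synthesis genes that did not read lower, Ggps1 and Ebp, hold NF-Y boxes as well.

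Between the labels, 16 of the 18 measured synthesis genes read lower in the arrays labelled KO, with a median log2 difference of -0.80 against 0.0025 over all genes and -0.027 over 9310 bright genes. A KO mean below the WT mean was seen in 41.6% of all genes and 55% of bright ones (bright means above 6.88, the median gene, in at least 1 group). For 10 of the 18 every KO array was below every WT array. Over all genes 3.81% lay that way, and over bright genes 6.27%. None lay wholly above (5.89% of all genes, 5.28% of bright ones). Of the 7 uptake and efflux genes, 3 read lower and 4 higher (58.4% of all genes read higher), with a median of 0.12. Of all 29 members, 22 read lower and 7 higher, 14 lay wholly below and 2 wholly above. The differences of the members are not independent, since all come from the same 6 arrays. The members were also chosen with earlier results of these data known, so setting them beside all genes is no test.

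No member passed a threshold of 0.05 on the adjusted p in limma over all 18193 genes, where the adjusted p of the members ran from 0.829 to 0.972. Over all genes 1 passed (0.0055%), so a member that did not pass may still differ. At an unadjusted p under 0.05 in limma stood 15 members as lower (2.59% of all genes, 4.18% of bright ones) and 2 as higher, Insig2 and Mylip (2% of all genes, 2.85% of bright ones). In whole lung RNA, fewer cells of a type and less RNA per cell cannot be told apart.

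**Figure D1:**
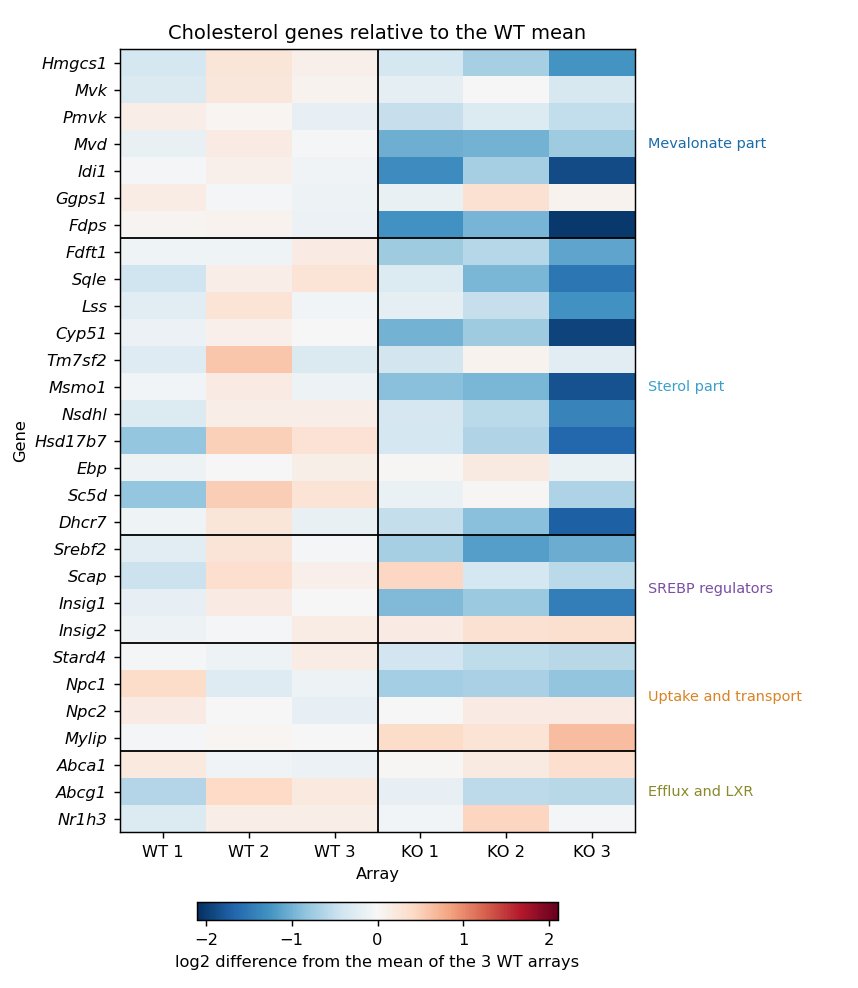
Log2 difference of each of the 29 members (rows, grouped by role) from the mean of the 3 arrays labelled WT, for each array (columns). Most synthesis genes are blue in all 3 arrays labelled KO and darkest in KO 3, while Insig2 and Mylip are red there.

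In the mevalonate part, 6 of 7 measured genes read lower in the arrays labelled KO (41.6% of all genes), with a median of -0.78. Of these, 5 lay wholly below the arrays labelled WT (3.81% of all genes, 6.27% of bright ones). Fdps, which makes farnesyl diphosphate, the branch point to sterols, ubiquinone and prenylated proteins, differed most. It read 10.06, 10.08 and 9.89 in WT 1 to 3 and 8.74, 9.03 and 7.99 in KO 1 to 3. Group means of 10.01 ± 0.10 and 8.59 ± 0.53 (SD, n = 3 each) gave a difference of -1.42 (SE 0.27) or 2.68-fold lower, with adjusted p = 0.829 in limma. The groups were well apart, and the arrays labelled KO were spread more widely than those labelled WT. Idi1, the isomerase that supplies the activated isoprene unit, read 10.83, 10.97 and 10.79 in WT 1 to 3 and 9.54, 10.17 and 8.98 in KO 1 to 3 (difference -1.30, SE 0.29, adjusted p = 0.832 in limma). As for Fdps, KO 3 was the lowest and KO 2 the highest of the arrays labelled KO.

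Mvd, the decarboxylase that ends the mevalonate steps, read 6.70, 7.02 and 6.83 in WT 1 to 3 and 5.83, 5.85 and 6.11 in KO 1 to 3 (difference -0.93, SE 0.18). Its groups were clearly apart, but both means lay below 6.88, the median of all genes, so the gene was dim, and KO 3 was here the highest of its group. Hmgcs1, the synthase that makes HMG-CoA, read 11.90, 12.52 and 12.38 in WT 1 to 3 and 11.89, 11.57 and 11.01 in KO 1 to 3 (difference -0.78, SE 0.27). The groups touched, with KO 1 level with WT 1. Its other probe sets differed by -0.61, -0.84, -1.02 and -0.47, and of these only that at -0.84 lay wholly below. Pmvk, a kinase of the same chain, read 8.51, 8.40 and 8.19 in WT 1 to 3 and 7.88, 8.08 and 7.85 in KO 1 to 3 (difference -0.43, SE 0.15, and -0.25 within station 2). Mvk, the kinase before it, overlapped between the groups (-0.18, SE 0.22). Ggps1, which lengthens farnesyl diphosphate for protein prenylation and so leads away from sterols, was the gene of the mevalonate part that did not read lower (0.08, SE 0.16).

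In the sterol part 10 of 11 measured genes read lower (41.6% of all genes), with a median of -0.81. Of these, 5 lay wholly below (3.81% of all genes, 6.27% of bright ones). Cyp51, the demethylase that acts on lanosterol, read 8.66, 8.89 and 8.78 in WT 1 to 3 and 7.79, 8.03 and 6.83 in KO 1 to 3. That is a difference of -1.22 (SE 0.33), 2.34-fold, with KO 3 well below the other arrays. Msmo1, the oxidase that removes the next methyl groups, read 9.40, 9.64 and 9.35 in WT 1 to 3 and 8.59, 8.50 and 7.64 in KO 1 to 3 (difference -1.22, SE 0.27). The arrays labelled WT were close together for both genes, with SDs of 0.11 and 0.15. Fdft1, which joins a pair of farnesyl units into squalene and commits carbon to sterols, read 10.63, 10.63 and 10.88 in WT 1 to 3 and 9.97, 10.11 and 9.60 in KO 1 to 3 (difference -0.81, SE 0.16). It was the steadiest of the sterol genes that lay wholly below, with the smallest SE among them.

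Dhcr7, the reductase of the last step, read 7.13, 7.47 and 7.06 in WT 1 to 3 and 6.72, 6.35 and 5.50 in KO 1 to 3 (difference -1.03, SE 0.35). Nsdhl, a dehydrogenase that acts with Msmo1, read 8.52, 8.95 and 8.95 in WT 1 to 3 and 8.46, 8.24 and 7.40 in KO 1 to 3 (difference -0.77, SE 0.31). For Nsdhl the groups all but met at WT 1 and KO 1. Sqle, which oxidises squalene, Lss, which closes the ring, and Hsd17b7, a ketoreductase, also read lower on average, by -0.92 (SE 0.36), -0.65 (SE 0.33) and -0.88 (SE 0.49). In these 3 genes WT 1 read below KO 1, so that the groups overlapped. Without KO 3 the difference was -0.34 for Lss, -0.50 for Hsd17b7, -0.46 for Nsdhl and -0.68 for Dhcr7. Hsd17b7 rests on a probe set of a type that can bind other transcripts, and its dimmer one differed by -0.16. Hmgcs1, Fdft1 and Lss rest on such probe sets too, and with other probe sets preferred they differed by -0.61, -0.78 and -0.94. Tm7sf2, a sterol reductase, and Sc5d, a sterol desaturase, differed by -0.19 (SE 0.29) and -0.26 (SE 0.40), the latter 0.0038 without WT 2 and -0.66 without WT 1. Ebp, the sterol isomerase, read 8.53 ± 0.11 and 8.55 ± 0.16 (SD, n = 3 each), a difference of 0.03 (SE 0.14).

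**Figure D2:**
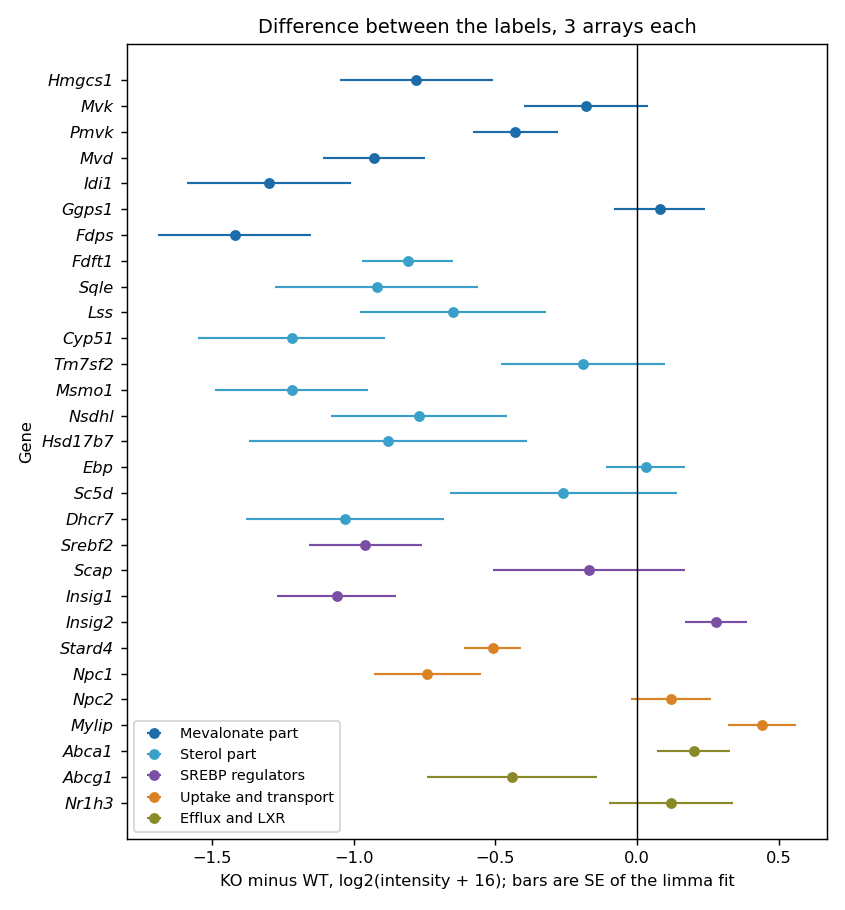
Difference between the means of the arrays labelled KO and WT for each member on the log2 scale (points, coloured by role), with bars for the SE of the limma fit (n = 3 each). The enzymes of synthesis lie mostly left of 0, down to -1.42 for Fdps, and the genes of uptake and efflux on both sides.

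The array labelled KO 3 was the lowest of all 6 arrays for 14 of the 18 synthesis genes, KO 1 for 3 and WT 1 for 1. Still, each array labelled KO lay below all 3 labelled WT for most of them: KO 1 for 12 of the 18, KO 2 for 12 and KO 3 for 15. Among the arrays labelled WT, WT 1 was the lowest for 10 genes and WT 2 the highest for 13. The shares of all genes with these orders of single arrays were not computed. Whether the orders are particular to these genes or common to the arrays is thus not shown. The mean over the 18 genes, relative to the mean of the arrays labelled WT, was -0.21, 0.19 and 0.02 in WT 1 to 3 and -0.54, -0.49 and -1.12 in KO 1 to 3. Without KO 3 the median difference of the synthesis genes was -0.52, with 16 of 18 lower. Within station 2, where WT 3 stands alone against the arrays labelled KO, it was -0.90. The fit with station as a block gives the same value by construction, since station 1 held only arrays labelled WT. With the signal of unnamed probe sets as a covariate, chosen after seeing the data, it was -0.57 with 16 of 18 lower.

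The regulators split, with the INSIG genes apart. Insig1, itself a target of SREBP2 that in turn restrains it, read 9.34, 9.68 and 9.52 in WT 1 to 3 and 8.58, 8.73 and 8.06 in KO 1 to 3 (difference -1.06, SE 0.21, adjusted p = 0.829 in limma). All arrays labelled KO were lower, KO 3 most. Insig2, its relative with the same restraining role, went the other way. It read 9.74, 9.81 and 10.001 in WT 1 to 3 and 10.02, 10.17 and 10.19 in KO 1 to 3 (difference 0.28, SE 0.11, adjusted p = 0.964 in limma). The groups did not overlap, but only narrowly, and the other 2 probe sets of Insig2 differed by 0.23 and 0.083 with overlapping groups. Within station 2 the difference of Insig2 was 0.12 and that of Insig1 was -1.07.

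Srebf2, which encodes SREBP2, read 8.32, 8.83 and 8.53 in WT 1 to 3 and 7.86, 7.41 and 7.52 in KO 1 to 3 (difference -0.96, SE 0.20, adjusted p = 0.832 in limma). The arrays labelled KO lay wholly below, with KO 2 and not KO 3 the lowest, and the other probe set of the gene differed by -0.88. Scap, the escort of SREBP2, read 8.31, 9.11 and 8.87 in WT 1 to 3 and 9.20, 8.39 and 8.19 in KO 1 to 3 (difference -0.17, SE 0.34). KO 1 was here the highest of all 6 arrays, and the difference turned to 0.0035 without WT 2 and to 0.034 without KO 3.

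**Figure D3:**
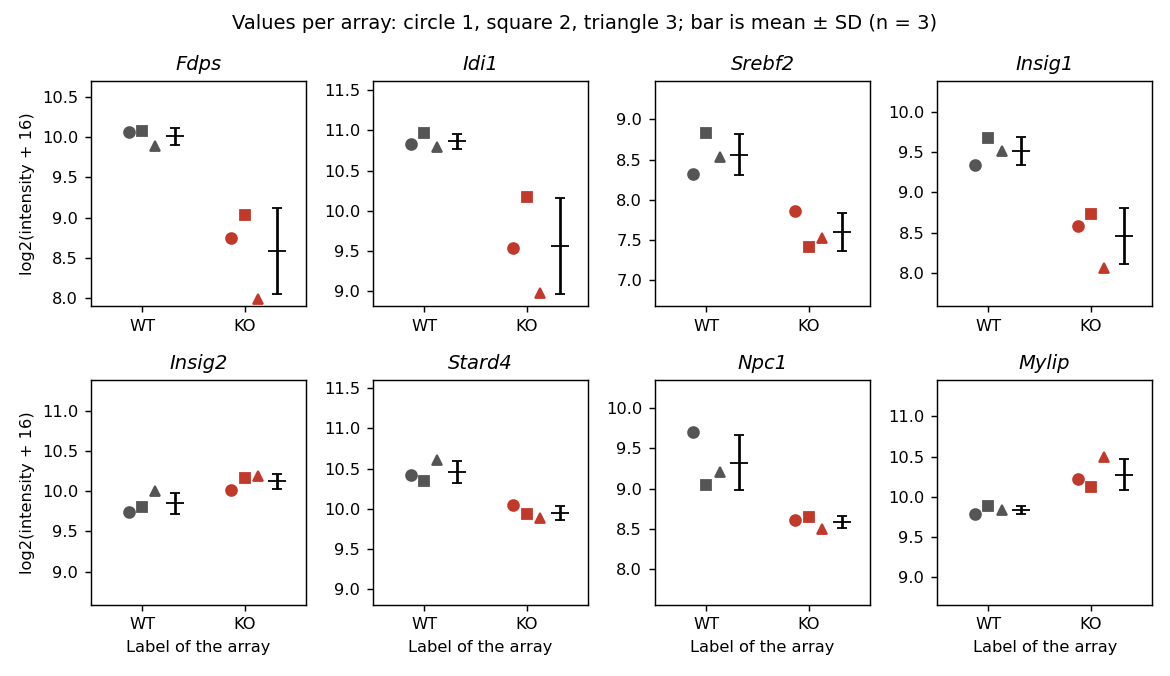
Values of 8 members on each array, log2(intensity + 16), with arrays 1, 2 and 3 as circle, square and triangle and the bar as mean ± SD (n = 3). Every panel spans the same log2 range. Fdps, Idi1, Srebf2, Insig1, Stard4 and Npc1 lie lower in all 3 arrays labelled KO, and Insig2 and Mylip higher.

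Genes that move sterol within the cell or control its uptake went both ways. Stard4, a carrier that shuttles cholesterol between membranes, read 10.42, 10.35 and 10.61 in WT 1 to 3 and 10.05, 9.93 and 9.88 in KO 1 to 3 (difference -0.51, SE 0.10). Each of its 3 probe sets lay wholly below in the arrays labelled KO, at -0.51, -0.39 and -0.66. Npc1, the lysosomal membrane protein that exports cholesterol taken up with lipoproteins, read 9.71, 9.05 and 9.21 in WT 1 to 3 and 8.61, 8.65 and 8.50 in KO 1 to 3 (difference -0.74, SE 0.19). The arrays labelled KO were nearly level (SD 0.08) and WT 1 was the highest.

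Npc2, the soluble partner that hands cholesterol to the Npc1 protein, did not follow it. It read 14.71, 14.54 and 14.37 in WT 1 to 3 and 14.54, 14.72 and 14.72 in KO 1 to 3 (difference 0.12, SE 0.14). Its groups overlapped, and its 4 probe sets disagreed in sign: 0.12 and 0.22 for the brighter and -0.14 and -0.13 for the dimmer ones. Mylip, a ubiquitin ligase under LXR control that sends lipoprotein receptors to degradation, read 9.79, 9.88 and 9.84 in WT 1 to 3 and 10.22, 10.12 and 10.49 in KO 1 to 3 (difference 0.44, SE 0.12, adjusted p = 0.964 in limma). The arrays labelled KO lay wholly above, and the arrays labelled WT were within an SD of 0.05. Over all 20 alternatives Mylip differed by 0.33 to 0.52, and Stard4 by -0.66 to -0.42.

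The efflux and LXR genes overlapped between the labels, with 0 of 3 wholly apart and a median of 0.12. Most genes overlap: over all genes 3.81% lay wholly below and 5.89% wholly above. Abca1, the pump that loads cholesterol onto apolipoprotein A-I, read 11.82, 11.53 and 11.48 in WT 1 to 3 and 11.64, 11.80 and 11.97 in KO 1 to 3 (difference 0.20, SE 0.13). WT 1 stood among the arrays labelled KO, and all 3 probe sets differed upward, by 0.20, 0.15 and 0.33. The probe set at 0.15 lay narrowly but wholly above in the arrays labelled KO, and the other 2 overlapped. Abcg1, the pump that passes cholesterol to lipoprotein particles, read 7.997, 9.04 and 8.83 in WT 1 to 3 and 8.45, 8.07 and 8.04 in KO 1 to 3 (difference -0.44, SE 0.30). Here WT 1 was the lowest array and WT 2 the highest, and the difference was -0.75 without WT 1 and -0.23 without WT 2. Nr1h3, the gene of LXR alpha, read 7.56, 7.99 and 7.99 in WT 1 to 3 and 7.79, 8.30 and 7.82 in KO 1 to 3 (difference 0.12, SE 0.22). By their brightest probe sets the efflux pumps, which LXR switches on, differed in opposite directions with overlapping groups.

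Synthesis was set against uptake and efflux within each array, as the mean of the 18 genes minus the mean of the 7. Relative to the mean of the arrays labelled WT, this was -0.18, 0.17 and 0.01 in WT 1 to 3 and -0.40, -0.40 and -1.0 in KO 1 to 3. The arrays labelled KO lay wholly below, by -0.60 on average (SD 0.17 and 0.35, n = 3 each), with KO 3 apart from the other two. The mean over the uptake and efflux genes alone was -0.03, 0.02 and 0.01 in WT 1 to 3 and -0.14, -0.09 and -0.12 in KO 1 to 3. In that mean Npc1, Stard4 and Abcg1 read lower and the other 4 genes higher, and the median of the 7 was above 0. The median was -0.02 without WT 1, -0.043 without KO 2 and -0.025 within station 2, so its sign is not settled. No p is given for these means, since the members were chosen. None of the 7 encodes a lipoprotein receptor, and the Mylip protein works against uptake, so these means do not measure uptake itself.

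**Figure D4:**
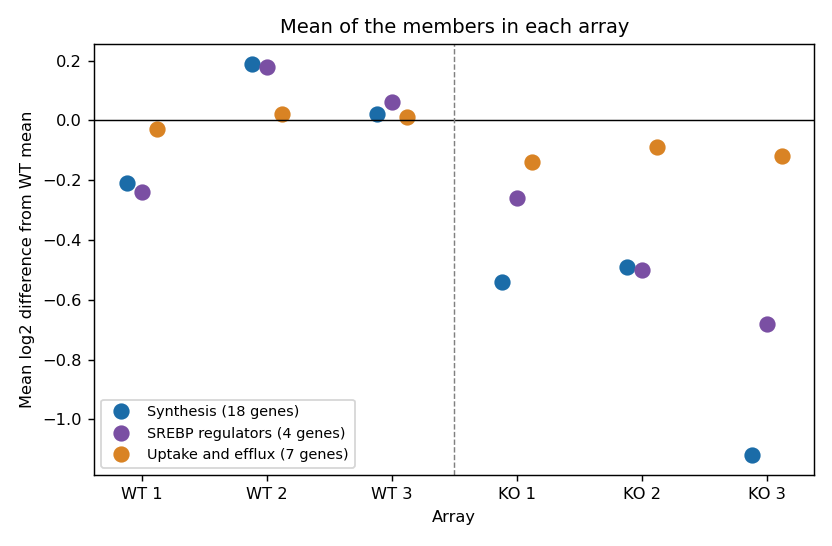
Mean log2 difference from the mean of the arrays labelled WT, over the 18 synthesis genes, the 4 regulators and the 7 uptake and efflux genes, for each array. In the arrays labelled KO the synthesis genes lie at -0.54, -0.49 and -1.12 and the uptake and efflux genes at -0.14, -0.09 and -0.12.

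Most probe sets that were not chosen also read lower for the synthesis genes. Of the 65 probe sets 11 lay near the floor, below 5 on every array. Of the 15 above the floor that belong to synthesis genes and were not chosen, 12 read lower and 3 higher, and 6 lay wholly below and 0 wholly above. The 3 higher ones all belong to Ggps1. These probe sets read genes already counted, on the same arrays, and some genes such as Hmgcs1 and Ggps1 have several. Shares over all probe sets were not computed. By brightest probe sets, 3.81% of all genes lay wholly below and 5.89% wholly above. Cyp51 had a dimmer probe set at -1.39, with 6.98, 7.67 and 7.65 in WT 1 to 3 and 6.71, 5.85 and 5.59 in KO 1 to 3. Mvk had a dimmer one that lay wholly below (-0.63), unlike its brightest. Of the 15 members with several probe sets above the floor, the signs differed in 1, Npc2.

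**Figure D5:**
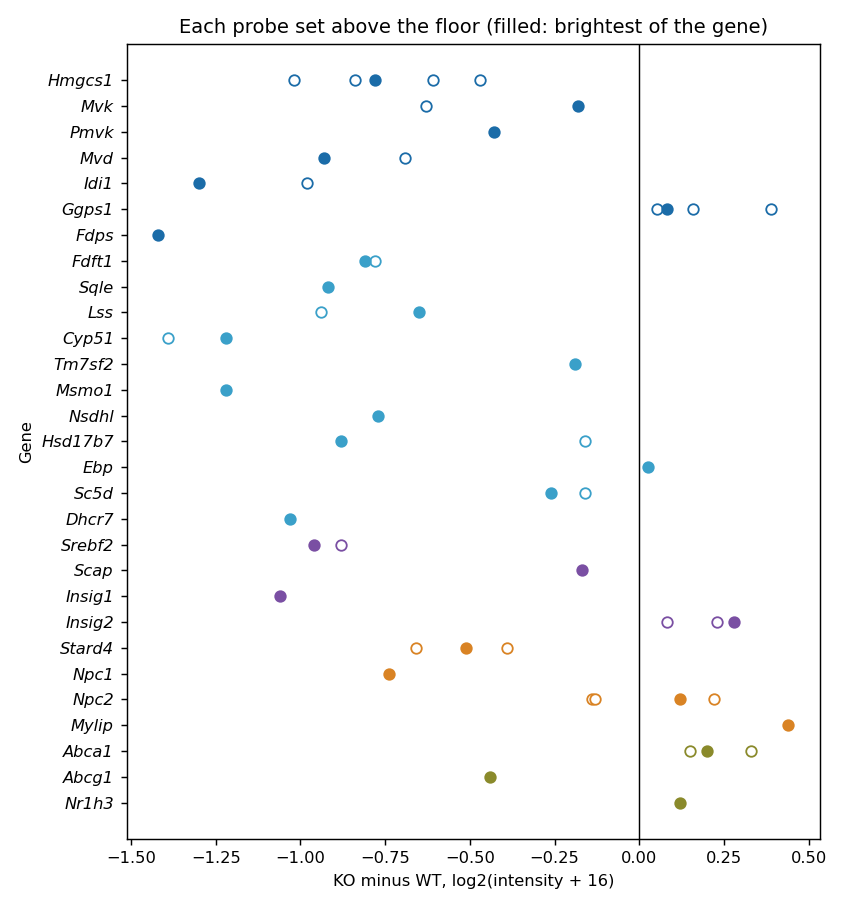
KO minus WT difference on the log2 scale for each of the 54 probe sets above the floor, by gene and coloured by role, with the brightest of each gene filled. Npc2 is the only gene with probe sets on both sides of 0.

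The other genes of the pathway had a median difference close to 0. Of 38 measured genes of a further list, 23 read lower and 15 higher (median -0.038), 4 lay wholly below and 0 wholly above (3.81% and 5.89% of all genes), and none passed in limma over all genes (0 of 38; at an unadjusted p under 0.05, 3 lower and 0 higher, against 2.59% and 2% of all genes). A mean below that of WT was seen in 41.6% of all genes. Among 11 sterol helpers and SREBP processing genes 9 read lower (median -0.21). The proteases that release SREBP, Mbtps1 and Mbtps2, differed by -0.02 (SE 0.18) and 0.06 (SE 0.17), and Srebf1, the relative that drives fatty acid synthesis, by -0.55 (SE 0.28). Of the 7 genes of the side branches to dolichol, ubiquinone and prenylated proteins 3 read lower. The lowest p among genes that read lower belonged to Nceh1, a cholesteryl ester hydrolase (-0.65, SE 0.20), Fntb, the beta subunit of farnesyltransferase (-0.84, SE 0.28), Lbr, a sterol reductase of the nuclear envelope (-0.21, SE 0.08), and Lipa, the lysosomal lipase of cholesteryl esters (-0.31, SE 0.13). Among those that read higher it belonged to Fnta, the alpha subunit of farnesyltransferase (0.26, SE 0.13), Cyp7b1, an oxysterol hydroxylase (0.26, SE 0.21), and the sterol transporters Gramd1b (0.30, SE 0.29) and Gramd1c (0.16, SE 0.17).

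No marker of a lung cell type passed in limma over all genes, and many had lower means in the arrays labelled KO. All 10 alveolar type I markers read lower in the arrays labelled KO (median -1.23, 2 wholly below, against 3.81% of all genes), with summed intensities of 105866 to 131971 in the arrays labelled WT and 59774 to 106850 in those labelled KO. Of 9 measured alveolar type II markers 7 read lower and 2 higher (median -0.24), with sums of 98672 to 133332 and 51406 to 139552. In that list 1 lay wholly below, Abca3 (-2.73, SE 1.34), and 1 wholly above, Sftpd (0.99, SE 0.23), against 3.81% and 5.89% of all genes. Abca3 read 11.70, 12.21 and 12.29 in WT 1 to 3 and 11.26, 10.64 and 6.12 in KO 1 to 3. Most of its difference thus comes from KO 3. All 5 endothelial markers read lower too (median -0.68, 0 wholly below), with sums of 4295 to 7621 and 4150 to 5470. No marker of these 3 lists was near the floor. Club and ciliated markers mostly read higher, 3 of 4 and 4 of 5, with 2 of each list wholly above (5.89% of all genes). Relative to the mean of the arrays labelled WT, the type I markers averaged -2.15, -0.17 and -1.26 in KO 1 to 3, the type II markers -0.78, 0.18 and -0.76 and the endothelial ones -0.14, -0.76 and -0.82, against -0.54, -0.49 and -1.12 for the synthesis genes. The part of these cell types in the difference of the synthesis genes was not tested.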

How the data were processed

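The 6 Affymetrix arrays, 3 labelled WT and 3 labelled KO, were analysed from the deposited value table. It holds intensities on a linear scale, as deposited. GCRMA and MAS5 appear in the submitters' processing notes with no version, role or order, so which of them was used is not stated. The arrays' quantiles lie close together (medians 20.6 to 24.1), and the intensities were taken as already normalised by the authors, which the notes do not state. The deposited experiment files (other than expression values) gave chip type, fluidics station and scan order per the file headers.

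Here intensities became log2(value + 16) with no further scaling. Of 45101 probe sets 64 were controls, 34945 named exactly 1 gene, 9160 were unnamed here and 932 named more than 1 gene. Gene IDs were updated through a RefSeq table of GRCm38.p6. The brightest probe set over all arrays stood for a gene, and no dim gene was filtered out. The test was two-sided, from lmFit and eBayes (trend on intensity) of limma 3.58.1 under R 4.3.3, adjusted by Benjamini-Hochberg over 18193 genes and a threshold of 0.05. Every adjusted p comes from that fit, errors on differences are its SE, and groups of genes are described without a test. The members, lists and tests were chosen with earlier results of these data known.

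Values of all arrays are given for the 4 members of each role with the smallest p and for others whose groups do not overlap, and the further list names the 4 with the smallest p in each direction. Other members, and Srebf1, Mbtps1 and Mbtps2, are named beyond that rule. Lists of fibroblast, smooth muscle, club, ciliated, lipofibroblast, macrophage, erythroid, mesothelial, heart and liver markers had median differences of -0.038, -0.26, 0.32, 0.36, -0.028, -0.032, -0.28, -0.28, 0.14 and -0.17. The promoter form TCACNCCAT was added after the sequences were seen. The limma fit was checked on simulated data with known changes, after the main fit, and the other computing steps were not. Alternatives were another eBayes prior, array weights, centring on the median, other probe sets, dim genes left out, quantile normalisation, pseudocounts of 1 and 64, replicate or station as a block, station 2 alone, each array left out, and a covariate for unnamed signal added after the data were seen.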

Additional observations from a re-analysis of the deposited data

How the results depend on the processing

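No member passed the threshold in limma under any of the 20 alternatives (0 members each), and the lowest adjusted p of a member was 0.0665, for Fdps with each array centred on its median. Of the 20, 5 repeat the differences of the main setting or of another alternative by construction. Over the other 15, 23 of the 29 members kept their direction and 13 of 435 pairs of member and alternative turned. Tm7sf2 turned to 0.11 and Ebp to -0.092 and Nr1h3 to -0.025 with station as a block and within station 2, and Scap turned to 0.08 with the covariate for unnamed signal. When 1 array was left out, Tm7sf2 ran from -0.33 to 0.10, Ebp from -0.057 to 0.10, Sc5d from -0.66 to 0.0038, Scap from -0.47 to 0.034, Ggps1 from -0.035 to 0.20 and Nr1h3 from -0.043 to 0.22. The median of the synthesis genes ran from -0.94 to -0.52 without 1 array, that of the regulators from -0.78 to -0.41, and that of uptake and efflux from -0.043 to 0.18. The last was also 0.064 with array weights, 0.16 with median centring, 0.017 with the mean of all probe sets, -0.025 with station as a block or within station 2, and 0.059 with the covariate. The count of genes called, 1 of 18193, was 0 without the intensity trend, with quantile normalisation, with the replicate block and with the covariate (at an unadjusted p under 0.05 in limma, 502, 511, 322 and 585 lower and 408, 414, 283 and 703 higher), 17 with median centring, 32 with station as a block and 10 within station 2. Without 1 array it ran from 0 to 1. The replicate block leaves each difference as it is by construction (medians -0.80 for synthesis and 0.12 for uptake and efflux), so this says nothing of stability; same-numbered arrays were not taken as pairs, since their residuals correlated at -0.613, 0.0971 and -0.311. The mean of all probe sets gave -0.56 for synthesis, -0.71 for Fdps, -0.40 for Fdft1, -0.59 for Msmo1 and -0.27 for Hsd17b7, and includes probe sets near the floor. With a pseudocount of 64 Mvd differed by -0.59, Dhcr7 by -0.68 and Hsd17b7 by -0.57. With the covariate Hsd17b7 differed by -0.52, Sc5d by -0.004 and Abcg1 by -0.24. The causes of these shifts were not tested, and dim members such as Mvd, Mvk and Tm7sf2 lie below the median gene.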
